A study of Chlorocebus sabaeus with 6 samples.

Results

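Retinoic acid is made from retinol, vitamin A, in a pair of oxidation steps. RDH10 oxidises retinol to retinal, DHRS3 reduces retinal back to retinol, and the ALDH1A enzymes oxidise retinal to retinoic acid. CRABP1 and CRABP2 bind retinoic acid in the cytoplasm, the nuclear receptors RARA, RARB and RARG respond to it, and the cytochrome P450 enzymes of the CYP26 family break it down. In the developing kidney retinoic acid from stromal and epithelial cells is a known regulator of branching, and CYP26A1 is a textbook gene induced by retinoic acid.

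The transcripts of 9 genes of synthesis, binding and breakdown were examined, out of 18050 genes in the deposited table. They were ALDH1A1, ALDH1A2, ALDH1A3, CRABP1, CRABP2, RDH10, DHRS3, CYP26A1 and CYP26B1. Of these, 8 were found by their symbol. CYP26A1 was found by its gene ID, 103216270, which the table lists without a gene name and RefSeq pairs with CYP26A1. These 9 genes were chosen by their place in the pathway and on their measured DKO and WT levels, which were already known. Their values are therefore a description with no test, and no p-value is given for them.

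RNA was measured in 6 samples of COS7, an SV40-transformed African green monkey kidney line (Chlorocebus sabaeus). The 3 DKO samples carry the genotype ATL2/3 knockout and the 3 WT samples are wild type. All were grown in DMEM with 10% fetal bovine serum, 1% penicillin and streptomycin and 5% CO2, a medium to which the labels record no added retinoid. The labels do not say how many clones the knockout represents or whether samples came from separate cultures, so each p-value reflects the variation among these 6 samples alone, possibly technical.

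Libraries held 14197344 to 15693049 estimated counts in DKO and 14923619 to 15127039 in WT. Both knockout targets had fewer counts in each DKO sample than in any WT sample, with log2 fold changes of -2.21 for ATL2 (SE 0.23, edgeR adjusted p = 0.000288) and -2.83 for ATL3 (SE 0.18, edgeR adjusted p = 3.65e-05). For each, the exact two-sided permutation p was 0.1, the smallest that 3 samples against 3 allow. ATL1, the remaining atlastin, had 9, 7 and 5 counts in DKO samples and 6, 15 and 15 in WT samples. DKO replicate 3 stood apart: its median absolute difference in log2 CPM (counts scaled to library size) was 0.447 and 0.458 from the other DKO samples, which differed from each other by 0.0737, and WT samples differed by 0.0823 to 0.113. Of the fixed markers, VIM and KRT8 were abundant in all samples (at least 1260 and 395 FPKM), while COL1A2 and COL3A1 did not exceed 0.05 FPKM and THY1 was listed at 0, and the 4 endothelial markers with values summed to at most 0.45 FPKM. Among the leukocyte markers, PTPRC, CD3E and CD14 did not exceed 0.18 FPKM, but CD68 and LYZ were present in every sample, and the list summed to 23.9 to 36.8 FPKM in DKO and 21 to 23.6 FPKM in WT. The summed mesenchymal list was 1510 to 1560 FPKM in DKO and 3360 to 3450 FPKM in WT and the epithelial list 528 to 689 FPKM in DKO and 661 to 754 FPKM in WT. Members of both lists differed in opposite directions. FN1 had 190.06 to 231.9 FPKM in DKO and 1783.44 to 1897.15 FPKM in WT, while PDGFRB had 4.65 to 6.13 FPKM in DKO and 0.53 to 0.63 FPKM in WT. CDH1 had 0.07 to 0.1 FPKM in DKO and 4.78 to 4.93 FPKM in WT, while EPCAM had 21.72 to 38.56 FPKM in DKO and 11.87 to 13.49 FPKM in WT. The proximal tubule list summed to 1.65 to 2.3 FPKM in DKO and 7.67 to 8.34 FPKM in WT, and 1 of its 6 genes reached 1 FPKM in any sample. The part of these markers in the results was not tested. FPKM are counts scaled by the authors to transcript length and library depth.

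The main feature was the near loss of ALDH1A1, the most abundant of the 9 transcripts in WT cells, with the other 8 at no more than 3.49 FPKM in any sample. ALDH1A3, DHRS3 and CRABP1 were also lower in DKO cells, CYP26A1 and CYP26B1 were higher at very low levels, and RDH10 and CRABP2 overlapped between genotypes. On CPM after TMM scaling (edgeR's correction for library composition), the 3 DKO samples lay all above the 3 WT samples for 3 of the 9 genes and all below them for 4, so 7 did not overlap. Among all 13094 genes tested the groups did not overlap for 62.5%, above for 30.5% and below for 32%. CRABP1 and CYP26A1, which did not overlap, were under the filter on low counts and so are not among the 13094. In bulk RNA, fewer cells expressing a gene and less of its RNA per cell cannot be told apart. On the FPKM scale 6 of the 9 did not overlap, since ALDH1A2 then overlapped. All 9 genes had whole-number counts in every sample, so their counts gave no sign of reads divided with another gene.

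**Figure D1:**
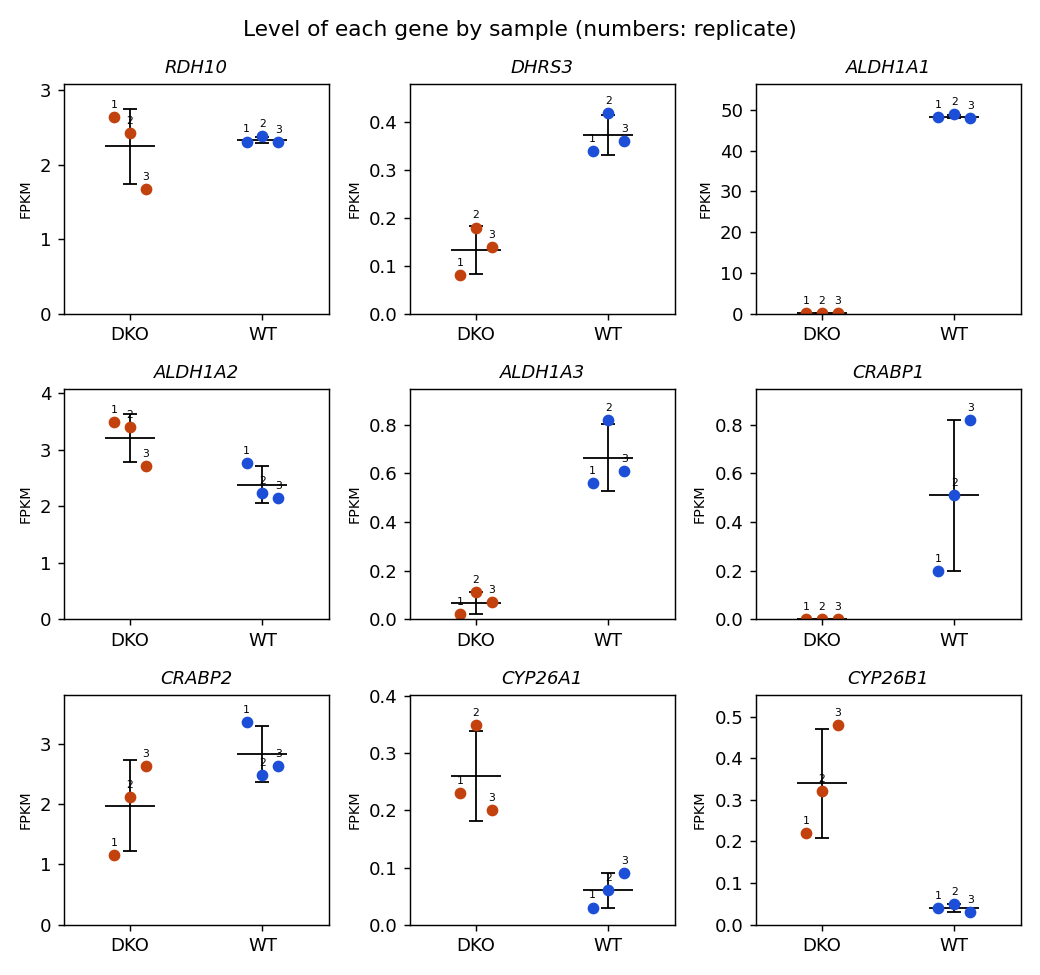
FPKM of the 9 genes in each sample (y axis from 0, a separate scale per gene), DKO left of WT. Points are samples numbered by replicate and bars are the mean ± SD (n = 3); ALDH1A1 stands at 0.09 to 0.11 FPKM in DKO and 48.04 to 48.9 in WT.

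Retinol and retinal are interconverted by RDH10 and DHRS3. RDH10, the retinol dehydrogenase required for embryonic retinoic acid synthesis in the mouse, had 144, 131 and 102 counts in DKO samples, against 133, 136 and 133 in WT samples. DKO replicate 3 was the lowest of the 6 and DKO replicate 1 the highest, so the genotypes overlapped. Its level was 2.24 ± 0.509 FPKM in DKO and 2.33 ± 0.0436 FPKM in WT (SD, n = 3 each), and its ratio of summed counts, DKO over WT, was 0.981 with a 95% counting interval of 0.85 to 1.13. The interval covers counting error only, here and below. The fitted log2 fold change of RDH10 was -0.02 (SE 0.17), and it was 0.12 without DKO replicate 3.

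DHRS3, which encodes the retinal reductase that opposes RDH10, had 3, 7 and 6 counts in DKO samples, against 14, 17 and 15 in WT samples. Every DKO sample was below every WT sample. The levels were 0.133 ± 0.0503 FPKM in DKO and 0.373 ± 0.0416 FPKM in WT, a count ratio of 0.364 (95% counting interval 0.192 to 0.655) and a fitted log2 fold change of -1.44 (SE 0.32). RDH10 made up 94.1 ± 2.57% of the summed FPKM of this pair in DKO and 86.2 ± 1.11% in WT.

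ALDH1A1 oxidises retinal to retinoic acid and also clears other aldehydes. It had 3 counts in each DKO sample, against 1515, 1530 and 1522 in WT samples. The replicates of each genotype lay close together and the gap between genotypes was far wider than their spread. Its level was 0.1 ± 0.01 FPKM in DKO and 48.4 ± 0.457 FPKM in WT. From the summed counts, 9 in DKO and 4567 in WT, the DKO level was lower by a factor of 485 (95% counting interval 255 to 1060). The fitted log2 fold change was -8.86 (SE 0.16), the 117th most negative of the 13094 genes tested. By level the gene ranked 13542nd of 18050 in DKO and 2084th in WT.

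ALDH1A2, which makes most retinoic acid in the early mouse embryo, had 178, 172 and 155 counts in DKO samples, against 148, 119 and 116 in WT samples. In FPKM the DKO samples held 3.49, 3.4 and 2.72 and the WT samples 2.76, 2.23 and 2.15, so DKO replicate 3 fell just below WT replicate 1. The count ratio was 1.38 (95% counting interval 1.21 to 1.58), with a fitted log2 fold change of 0.47 (SE 0.15) that ranged from 0.39 to 0.58 when each sample was left out in turn. The ALDH1A2 difference was thus small beside that of ALDH1A1 and did not part the genotypes on every scale.

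ALDH1A3, the third retinal-oxidising ALDH1A enzyme, had 1, 5 and 4 counts in DKO samples, against 28, 41 and 31 in WT samples. All DKO samples were below all WT samples. The levels were 0.0667 ± 0.0451 FPKM in DKO and 0.663 ± 0.138 FPKM in WT. The count ratio was 0.105 (95% counting interval 0.0487 to 0.2) and the fitted log2 fold change -3.21 (SE 0.40).

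Summed over the 3 ALDH1A genes, the level was 3.62, 3.61 and 2.88 FPKM in DKO samples, against 51.52, 51.95 and 50.8 FPKM in WT samples. The gene that contributed most also differed. ALDH1A1 made up 2.98 ± 0.185% of the sum in DKO and 94.1 ± 0.507% in WT, whereas ALDH1A2 made up 95 ± 1.22% in DKO and 4.63 ± 0.633% in WT (SD, n = 3 each). ALDH1A2 was thus the leading ALDH1A transcript of DKO cells, while its own level was 3.2 ± 0.421 FPKM in DKO and 2.38 ± 0.332 FPKM in WT.

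**Figure D2:**
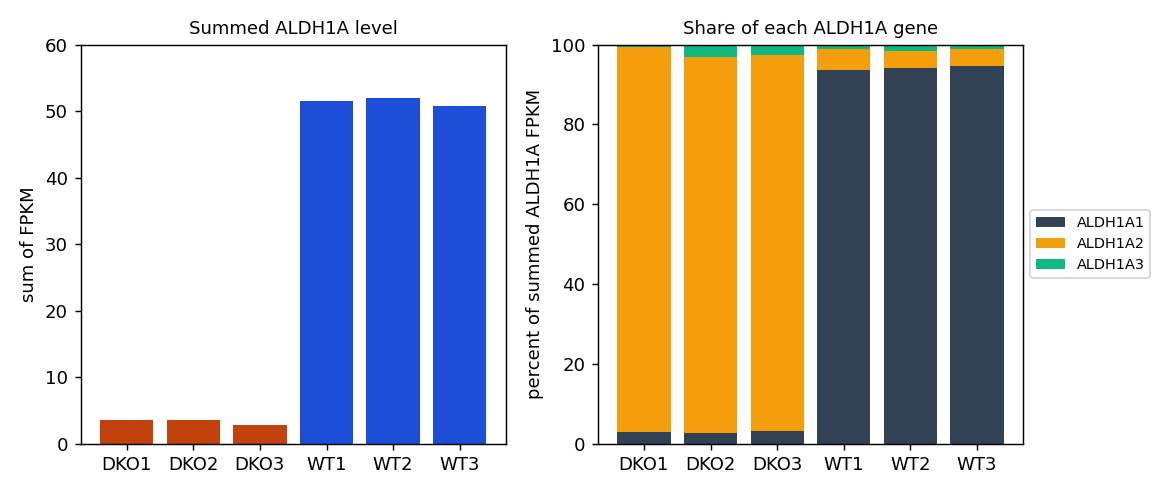
Left: summed FPKM of ALDH1A1, ALDH1A2 and ALDH1A3 in each sample. Right: the percent of that sum from each gene, stacked; ALDH1A2 holds 94.2 to 96.4% in DKO samples and ALDH1A1 93.6 to 94.6% in WT samples.

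The binding proteins were scarce in both genotypes. CRABP1, which holds retinoic acid in the cytoplasm, had 0 counts in every DKO sample, against 2, 5 and 8 in WT samples. Set against an assumed floor of 3 counts over the 3 DKO libraries, CRABP1 was 4.78-fold lower in DKO. Its 95% counting interval allowed as little as 3.43-fold. The WT samples ranged from 0.2 to 0.82 FPKM, so the WT level was itself poorly determined. CRABP2, which hands retinoic acid to its nuclear receptors, had 15, 27 and 40 counts in DKO samples, against 46, 34 and 36 in WT samples. DKO replicate 3 lay within the WT range and DKO replicate 1 was the lowest. The levels were 1.97 ± 0.751 FPKM in DKO and 2.83 ± 0.467 FPKM in WT, a count ratio of 0.739 (95% counting interval 0.55 to 0.99). The fitted log2 fold change of CRABP2, -0.44 (SE 0.32), was -0.79 without DKO replicate 3 and -0.16 without DKO replicate 1.

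The CYP26 enzymes were the only members with a ratio above 2, both at low levels. CYP26A1, the main retinoic acid hydroxylase of many tissues, had 7, 12 and 7 counts in DKO samples, against 1, 2 and 4 in WT samples. CYP26B1, its relative in brain, limb and gonad of the mouse, had 14, 24 and 34 counts in DKO samples, against 3, 4 and 2 in WT samples. For both genes every DKO sample was above every WT sample. The count ratio was 3.89 for CYP26A1 (95% counting interval 1.64 to 10.6) and 8.37 for CYP26B1 (4.17 to 19.0). The levels stayed under 0.5 FPKM: CYP26A1 had 0.26 ± 0.0794 FPKM in DKO and 0.06 ± 0.03 FPKM in WT, and CYP26B1 had 0.34 ± 0.131 FPKM in DKO and 0.04 ± 0.01 FPKM in WT. The fitted log2 fold change of CYP26B1 was 3.01 (SE 0.46). Their summed level was 0.6 ± 0.13 FPKM in DKO and 0.1 ± 0.0265 FPKM in WT.

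**Figure D3:**
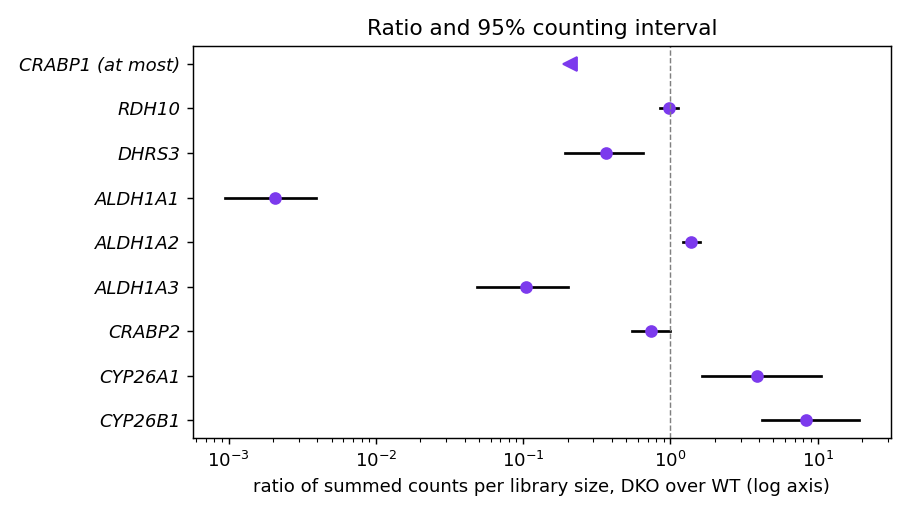
Ratio of summed counts per scaled library size, DKO over WT, for each gene on a log axis, with its exact 95% counting interval (line). CRABP1, with 0 counts in DKO, is marked at 0.209, its value at a floor of 3 counts. Although its label reads at most, its counting interval, not drawn, reaches 0.292. RDH10 sits at 0.981 and ALDH1A1 at 0.00206.

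Of the 9 genes, 7 passed the filter on low counts, and CRABP1 and CYP26A1 did not. ALDH1A1, ALDH1A3 and DHRS3 passed through their WT counts and CYP26B1 through its DKO counts. Had both genotypes held the counts of the lower one, these genes would not have entered the fit. In order of level, DKO cells held ALDH1A2, RDH10, CRABP2, CYP26B1, CYP26A1, DHRS3, ALDH1A1, ALDH1A3 and CRABP1. The ranges overlapped between RDH10 and CRABP2, between CYP26B1 and CYP26A1, and along DHRS3, ALDH1A1 and ALDH1A3. WT cells held ALDH1A1, CRABP2, ALDH1A2, RDH10, ALDH1A3, CRABP1, DHRS3, CYP26A1 and CYP26B1. There the ranges overlapped along CRABP2, ALDH1A2 and RDH10, along ALDH1A3, CRABP1 and DHRS3, and between CYP26A1 and CYP26B1.

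Within DKO, the scaled count of DKO replicate 3 was 1.81 times the pooled level of the other DKO samples for CRABP2 and 1.7 times for CYP26B1, and 0.706 times for RDH10, 0.701 times for CYP26A1 and 0.843 times for ALDH1A2. For ALDH1A1 this ratio was 0.951. What sets this sample apart was not tested.

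Other genes of the pathway were taken from fixed lists and tested with edgeR across all genes. A gene was called at an adjusted p below 0.05, and 45.5% of all 13094 genes were called, 23.3% higher and 22.2% lower in DKO, with a median log2 fold change of -0.01. Without DKO replicate 3 these shares were 74.6%, 36.0% and 38.6%.

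**Figure D4:**
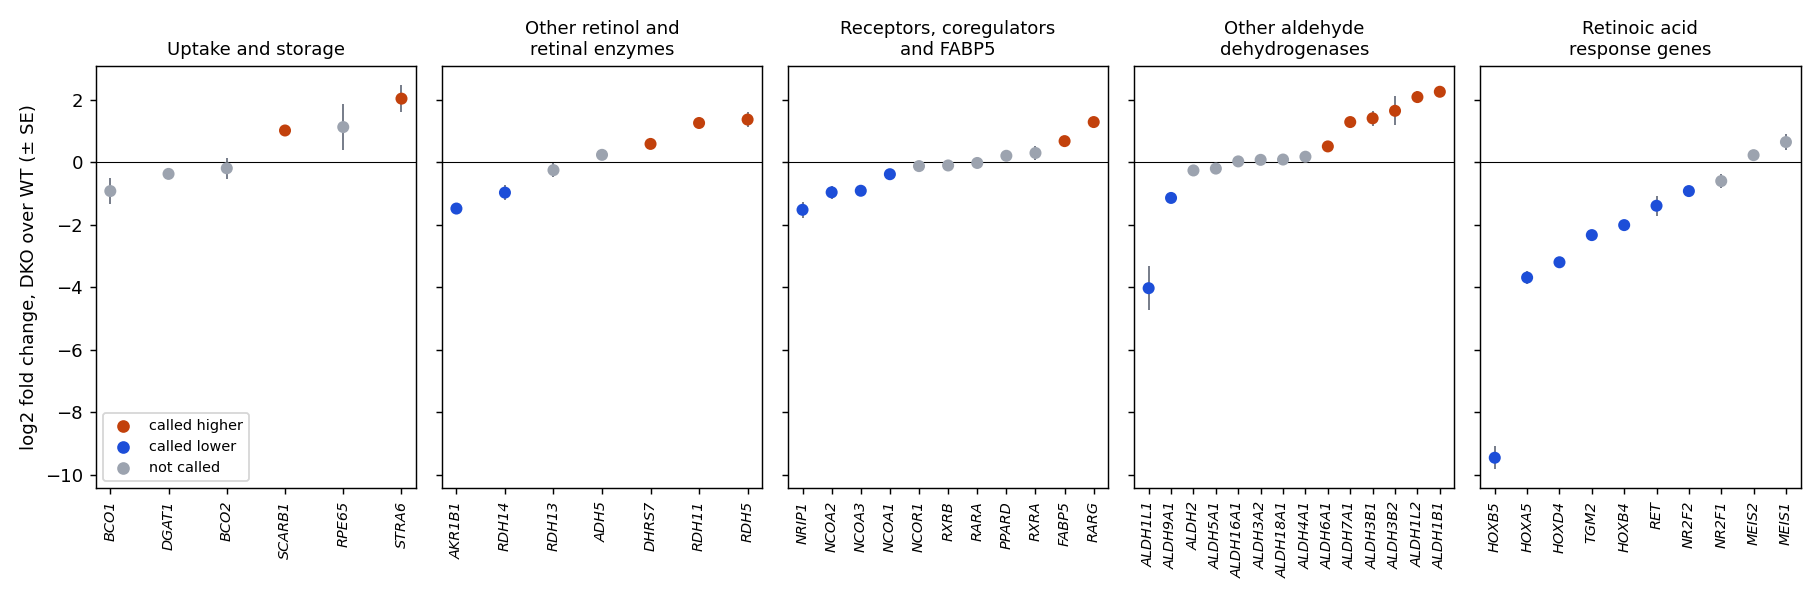
Fitted log2 fold change, DKO over WT, with its SE (bars) for tested genes of 5 retinoid gene lists, coloured by call. The retinoic acid response list runs from -9.46 (HOXB5) to 0.65 (MEIS1), with 7 of the 10 genes drawn called lower.

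Of 7 tested genes of retinol uptake and storage, 2 were higher, 0 lower and 5 not called (median log2 fold change -0.19). STRA6, the cell-surface receptor for retinol-binding protein, had 17, 23 and 44 counts in DKO samples, against 9, 5 and 7 in WT samples, and rose by 2.04 on the log2 scale (SE 0.44, edgeR adjusted p = 0.00832). SCARB1, a lipoprotein receptor that also takes up carotenoids, averaged 96.7 ± 18.4 FPKM in DKO and 50.1 ± 2.82 FPKM in WT (1.02, SE 0.16, edgeR adjusted p = 0.00212). Without DKO replicate 3 the list had 3 genes higher and 3 lower, with RPE65, BCO1 and DGAT1 (named after their values were seen) among those called, at 1.57, -1.53 and -0.55.

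Of 7 tested enzymes that act on retinol or retinal besides RDH10 and DHRS3, 3 were higher, 2 lower and 2 not called (median 0.24). RDH11, a retinal reductase of the endoplasmic reticulum, averaged 59.8 ± 8.47 FPKM in DKO and 26.1 ± 0.537 FPKM in WT (1.26, SE 0.16, edgeR adjusted p = 0.000829). AKR1B1, aldose reductase, which can also reduce retinal, fell to 157 ± 13.8 FPKM in DKO, against 454 ± 15.9 FPKM in WT (-1.48, SE 0.12, edgeR adjusted p = 0.000101). RDH5, best known from the visual cycle, rose at a low level by 1.37 (SE 0.24, edgeR adjusted p = 0.0032). DHRS7 rose by 0.59 (SE 0.13, edgeR adjusted p = 0.0109) and lost its call without WT replicate 2 (adjusted p = 0.0583) or WT replicate 3 (adjusted p = 0.0588). ADH5, the class III alcohol dehydrogenase, had 61.5 ± 3.94 FPKM in DKO and 53.9 ± 0.847 FPKM in WT and was not called (edgeR adjusted p = 0.0899), but was called without DKO replicate 3 (0.21). In FPKM, a level per length, RDH11 exceeded RDH10 in every sample. The list count fell to 2 higher and 1 lower without WT replicate 2, where RDH14 was also not called (-0.99).

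The receptor list of 12 tested genes had 2 called higher, 4 lower and 6 not called (median -0.06). RARG had 32.78, 33.18 and 39.45 FPKM in DKO samples, against 14.78, 15.45 and 14.27 FPKM in WT samples, and rose by 1.29 (SE 0.14, edgeR adjusted p = 0.000329). RARA had 17.6 ± 2.09 FPKM in DKO and 18.8 ± 0.351 FPKM in WT, with overlapping groups (-0.02, SE 0.14, edgeR adjusted p = 0.918), though it was called without DKO replicate 3 (-0.16). RARB, itself a textbook retinoic acid target, was under the filter with 2, 1 and 2 counts in DKO samples, against 6, 10 and 6 in WT samples, a count ratio of 0.238 (95% counting interval 0.0703 to 0.643). RARG made up 66.5 ± 0.706% of the summed RAR FPKM in DKO and 43.9 ± 0.825% in WT.

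Among the retinoid X receptors, the partners of the RARs, RXRA had 20.2 ± 5.02 FPKM in DKO and 17.2 ± 1.98 FPKM in WT (0.30, SE 0.22, edgeR adjusted p = 0.305). RXRB had 12.8 ± 2.53 FPKM in DKO and 14.2 ± 0.91 FPKM in WT (-0.10, SE 0.18, edgeR adjusted p = 0.683) and was called without DKO replicate 3 (-0.32). RXRG was not analysed here. FABP5, a fatty acid-binding protein that can carry retinoic acid to PPARD, had 222.05, 212.01 and 204.06 FPKM in DKO samples, against 135.74, 141.54 and 139.31 FPKM in WT samples, and rose by 0.68 (SE 0.10, edgeR adjusted p = 0.00133). CRABP2 made up 0.929 ± 0.382% of the summed FPKM of CRABP2 and FABP5 in DKO and 2 ± 0.366% in WT. The corepressor gene NRIP1 (-1.52, SE 0.25, edgeR adjusted p = 0.00256) and the coactivator gene NCOA3 (-0.91, SE 0.13, edgeR adjusted p = 0.0013) fell. NRIP1 counts were not whole numbers, so some of its reads may have been divided with another gene. NCOA1 (named after its values were seen) was called lower at -0.38 and lost its call when any sample but DKO replicate 3 was left out.

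Of 14 tested aldehyde dehydrogenases outside the ALDH1A group, 6 were higher, 2 lower and 6 not called (median 0.14). Without WT replicate 1 the list had 4 higher and 2 lower of 15 tested, and without DKO replicate 3 it had 7 higher and 4 lower. ALDH3B2 (1.65) and ALDH6A1 (0.51), named after their values were seen, were called higher but lost their calls without WT replicate 1 or 2. ALDH3B2 also lost its call without WT replicate 3. ALDH1B1, a mitochondrial enzyme close in sequence to the ALDH1A group, had 34.51, 35.6 and 42.66 FPKM in DKO samples, against 7.25, 8.55 and 8.5 FPKM in WT samples (2.26, SE 0.13, edgeR adjusted p = 2.27e-05). ALDH7A1, of lysine breakdown, averaged 70.9 ± 2.86 FPKM in DKO and 30 ± 0.807 FPKM in WT (1.29, SE 0.11, edgeR adjusted p = 0.000108). ALDH1L2, a mitochondrial folate enzyme, rose by 2.09 (SE 0.19, edgeR adjusted p = 0.000163). ALDH9A1 fell to 17.8 ± 3.55 FPKM in DKO, against 40.1 ± 1.83 FPKM in WT (-1.14, SE 0.14, edgeR adjusted p = 0.000784). ALDH3A2, a fatty aldehyde dehydrogenase, had 40.1 ± 8.1 FPKM in DKO and 38.5 ± 0.999 FPKM in WT (0.08, SE 0.15, edgeR adjusted p = 0.695). It was called without DKO replicate 3 (0.23), and its counts were not whole numbers. Summed over all 19 ALDH genes of the table, ALDH1A included, the level was 280 ± 5.96 FPKM in DKO and 272 ± 1.89 FPKM in WT. The family total was thus not lower in DKO, although ALDH1A1 made up 0.0358 ± 0.00423% of it in DKO and 17.8 ± 0.147% in WT.

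Of 12 tested genes known to respond to retinoic acid in other cells or in embryos, 0 were higher, 9 lower and 3 not called, with a median log2 fold change of -1.70. Genes of the HOX clusters, which pattern the body axis, led the list. HOXB5 had 0, 0 and 1 counts in DKO samples, against 330, 346 and 331 in WT samples, a level lower by a factor of 963 (95% counting interval 172 to 38100; edgeR adjusted p = 6.15e-06). HOXD4 (-3.20, SE 0.16, edgeR adjusted p = 1.6e-05) and HOXA5 (-3.69, SE 0.20, edgeR adjusted p = 1.96e-05) fell as well, and HOXA5 counts were not whole numbers.

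Also called lower, and named after their values were seen, were HOXB4, TGM2, NR2F2 and RET, between -0.92 and -2.33. MEIS1 was called higher without DKO replicate 3 (0.82), and RET was not called without WT replicate 1 (-1.28). CYP26C1, the third CYP26 gene, was not analysed here. The list shares its HOX genes with clusters that lie close together on chromosomes, so its members are not independent of each other. These genes respond to many other signals, and whether retinoic acid has a part in their lower level was not tested. In the response list 0 of 12 tested genes were called higher and 9 lower. Outside it, directions differed among genes of this text known to be induced by retinoic acid. STRA6 was higher, CYP26A1 and CYP26B1 had higher counts, and DHRS3 and RARB had lower counts in DKO.

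The genes next to the 9 members in the RefSeq gene order were examined to see whether a difference extended over a stretch of the genome. Of 18 nearest protein-coding neighbours, 11 were tested, 2 of them higher, 5 lower and 4 not called. ALDH1A1 had no tested nearest neighbour, since CYP1D1 lay under the filter and TMC1, on the other side, was not found in the deposited table. Within 5 genes of ALDH1A1 on either side, 5 genes were tested and 2 were higher, 1 lower and 2 not called, all named here after their values were seen. The genes called higher were ANXA1, at 613 ± 64.5 FPKM in DKO and 333 ± 16.1 FPKM in WT (0.93, SE 0.09, edgeR adjusted p = 0.000179), and TRPM6 (1.86, SE 0.28, edgeR adjusted p = 0.00173). GDA, 5 places from ALDH1A1, was called lower, with 0, 1 and 1 counts in DKO samples, against 26, 21 and 23 in WT samples (-4.83, SE 0.46, edgeR adjusted p = 0.000205). ZFAND5 (0.36) and C12H9orf40 (0.57) were not called.

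Next to CRABP1, SKIC8 (-0.87, SE 0.11, edgeR adjusted p = 0.000888) and IREB2 (-1.19, SE 0.29, edgeR adjusted p = 0.0136) both fell. Within 5 places of CRABP1, 7 of 8 tested genes were lower and 0 higher, beside 22.2% lower among all genes. This was the window with the most genes called lower. Over the windows of all members together, 61 neighbours were tested, 16 of them higher, 16 lower and 29 not called. Next to CYP26B1, which was higher, the muscle membrane gene DYSF (-5.52, SE 0.57, edgeR adjusted p = 0.000305) and EXOC6B (-0.97, SE 0.13, edgeR adjusted p = 0.000867) fell. Next to CRABP2, NES, which encodes nestin, fell by 5.16 on the log2 scale (SE 0.38, edgeR adjusted p = 7.41e-05), and ISG20L2 was called higher (0.47, SE 0.16, edgeR adjusted p = 0.0442) but lost this call in fits without DKO replicate 1 or any of the WT samples, and stood at 0.30 without DKO replicate 3. Next to ALDH1A3, LRRK1 rose by 0.97 (SE 0.18, edgeR adjusted p = 0.00392) while ALDH1A3 had lower counts. Of the remaining nearest neighbours, POLR2M beside ALDH1A2, VPS13D beside DHRS3, and RPL7 and STAU2 beside RDH10 were not called, and without DKO replicate 3 RPL7 and STAU2 were called at -0.13 and -0.49.

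**Figure D5:**
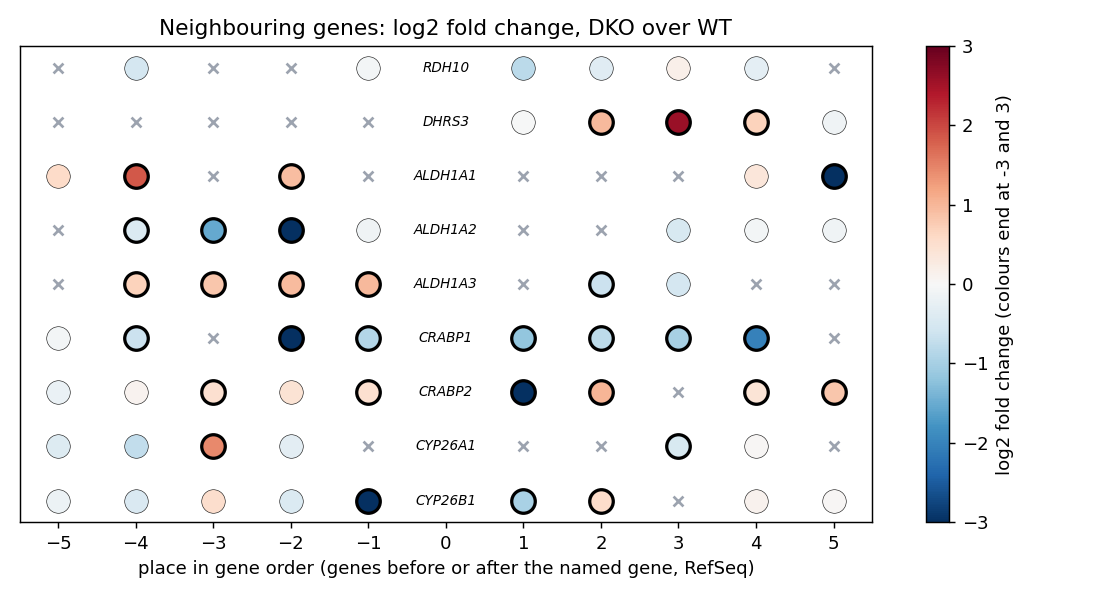
Each row is a gene with its 5 nearest protein-coding neighbours on each side in RefSeq order (x axis, places in gene order). Circles are coloured by log2 fold change, DKO over WT, with a thick edge where called; crosses are neighbours with no test. In the CRABP1 row 7 of 8 tested neighbours are called lower and in the RDH10 row 0 of 6 are called. Over all rows, 16 of 61 tested neighbours are called higher and 16 lower.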

How the data were processed

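The deposited table holds, per the file headers, an estimated count and an FPKM value per gene and sample, made by the authors; 5.8 to 6.5% of estimated counts were not whole. The tools HISAT and Bowtie2 come from the submitters' processing notes, without versions. The sources used here do not give the counting program, strand setting or genome build. Its 9 columns of 3 other samples were not used. RefSeq (mChlSab1.0.hap1) gave names for unnamed gene IDs and gene order only; 92.7% of IDs matched.

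Estimated counts were rounded and fitted over all genes with edgeR 4.0.16 (R 4.3.3): TMM, default filter (minimum count 10), quasi-likelihood test, Benjamini-Hochberg adjustment over 13094 genes. Each SE was taken as the size of the log2 value over the square root of its F statistic. Count ratios use summed counts over TMM-scaled library sizes with exact conditional binomial 95% intervals. The step was tested on simulated data. Alternatives used DESeq2 1.42.0 and limma 3.58.1. The limma fits were voom, log2(FPKM + 1) with and without a filter of 1 FPKM, and log2(FPKM + 0.1) with that filter. The members and lists were chosen with earlier results of these data known. Named genes were all members, the atlastins, up to 4 called genes of smallest adjusted p and the 2 of highest level per list, every RAR and RXR, CYP26C1, and nearest neighbours; some of these genes are counted in the lists but not reported here. The labels do not say whether replicate numbers pair the samples. Deviations from the group means correlated at 0.0215, -0.284 and -0.29 for the same numbers. With 3 samples per group these values cannot decide whether the numbers mark pairs. No sequences are printed.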

Additional observations from a re-analysis of the deposited data

How the results depend on the processing

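Leaving out each sample in turn gave 4266 to 9880 called genes against 5959, with 2105 to 4770 higher and 2146 to 5110 lower; the highest counts were those without DKO replicate 3. In the same fits the uptake and storage list had 2 to 6 genes called and the other retinol and retinal enzymes 3 to 7. The counts of the other lists and of the nearest neighbours stayed within 1.5 times of the main count under every alternative run. With the replicate number as a block, 4485 genes were called, 2220 higher and 2265 lower. The lists then had 2, 5, 5, 7 and 9 genes called. Whether the numbers pair the samples is not known. Of the members fitted, 4 differed by 1 or more on the log2 scale, 6 with DESeq2 or without the filter, and 1 on log2(FPKM + 1), with or without the filter, or on log2(FPKM + 0.1), since a pseudocount shrinks low values and the filter removes low genes. On log2(FPKM + 1) ALDH1A1 stood at -5.49. Beside RDH10, signs turned for 4 named genes, none of them called in the fit on all 6 samples: ALDH3A2 (-0.01 and -0.0049 without DKO replicate 1 or 2; range -0.01 to 0.23), RARA (0.03, 0.04 and 0.01 without DKO replicate 1, DKO replicate 2 or WT replicate 2; range -0.16 to 0.04), and POLR2M (0.04; range -0.26 to 0.04) and VPS13D (0.03; range -0.07 to 0.03) without DKO replicate 3. Of these, ALDH3A2 and RARA were called without DKO replicate 3, at 0.23 and -0.16. Counts of 0 to 46 in a sample limit CRABP1, CRABP2, ALDH1A3, DHRS3 and the CYP26 genes.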
